A study of Homo sapiens with 8 samples.

Results

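The SPOCK family and genes reported elsewhere as targets of miR-150 were followed across 3 cancer cell lines. The set held 9 of the 43317 genes on the array, namely SPOCK1, SPOCK2, SPOCK3, MYB, NOTCH3, EGR2, P2RX7, CXCR4 and EP300. They were chosen with earlier results of these data known, so the place of a member among all probes may not be independent of that choice. Every probe carrying such a gene name was taken, which gave 14 of 58201 gene probes.

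A microRNA is a short RNA that pairs with messenger RNAs, mostly through its seed near the 5′ end, and lowers their level or their translation. Both strands of the miR-150 hairpin can be made, and miR-150-5p is best known in lymphocytes, where MYB, a transcription factor of immature blood cells, is its classical target. The SPOCK genes encode testicans, secreted proteoglycans of the extracellular matrix that are related to SPARC. Cultured cancer cells of epithelial origin express some of these genes and lack others, so whether a gene can fall at all depends on whether the mock cells make it.

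A single slide carried 8 Agilent arrays, each hybridised with a pair of samples in different dyes, and each condition was measured once. In PC3, a prostate cancer line, the transfected RNA was miR-150-5p, miR-150-3p, miR-99a-3p or miR-100-3p. In FaDu, a line from a hypopharyngeal cancer, it was one of the miR-99a strands, 5p or 3p. In the pancreatic cancer line PANC-1 it was 1 of 2 siRNAs against FOXQ1 (si-FOXQ1-1 and si-FOXQ1-2). Transfection used Lipofectamine RNAiMAX. On every array the transfected cells were labelled with Cy5 and mock cells of the same line with Cy3. The labels describe the mock cells as not transfected, so every ratio compares cells that received a small RNA with cells that received none. Dyes were not swapped, and an effect of the dye and an effect of transfection cannot be told apart on any single array. By their titles, the arrays with miR-150-5p and miR-150-3p were made to find targets of these strands. The other 6 arrays served here as cells that received another small RNA.

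Mature sequences are shown for the 3 transfected miRNAs that are in the RefSeq table (GRCh38.p14), because the arrays with miR-99a-3p and miR-100-3p are the other PC3 arrays against which miR-150 was set. The seed, bases 2 to 8, is in capitals. miR-99a-5p lies at chr21:16539101-16539122 and miR-99a-3p at chr21:16539138-16539159 (plus strand), and miR-100-3p at chr11:122152240-122152261 (minus strand).
hsa-miR-99a-3p: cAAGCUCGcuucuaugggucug
hsa-miR-100-3p: cAAGCUUGuaucuauagguaug
hsa-miR-99a-5p: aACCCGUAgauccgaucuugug
miR-99a-3p and miR-100-3p share 17 of 22 positions and 6 of 7 seed positions, so these PC3 arrays were closely related treatments. miR-99a-5p shares 7 of 22 positions with miR-99a-3p.

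Ratios are given as log2 of Cy5 over Cy3, so that −1 stands for 2-fold lower in transfected cells. The error in parentheses is the spot error that the scanner software wrote for the ratio, averaged over spots where a probe had several. It is a technical error of 1 hybridisation and leaves out the spread between cultures, and without replicates no test of a ratio was possible. A probe was called detected when Cy3, Cy5 or both were well above background and measured when both were. The share of gene spots well above background was 44.4% to 49.1% in Cy3 and 37.1% to 41.7% in Cy5, and the median ratio of measured probes lay between 0.00 and 0.07 on all 8 arrays. FOXQ1, the siRNA target, was at −2.16 and −2.12 in the PANC-1 cells. The epithelial markers KRT8, KRT18, EPCAM and CDH1 were above background in mock cells of every line. The squamous markers KRT5, KRT14 and TP63 were above background in FaDu mock cells and in neither other line. KLK3, which encodes prostate-specific antigen, was not above background on any of the 8 mock channels. PTPRC, a leukocyte marker, was above background on 2 mock channels of each line, with mock signals of at most 46.7. PECAM1, an endothelial marker, was above background in PC3 mock cells, at 83.1 to 115.

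With miR-150-5p, MYB was the only detected member more than 2-fold lower, and no detected member was more than 2-fold higher. With miR-150-3p, SPOCK1 was far lower and CXCR4 far higher, and the other detected members stayed within 2-fold. For miR-150-5p this made 1 of 11 detected member probes below −1, beside 4.75% of all 27406 detected probes, and 0 of 11 above 1, beside 0.66%. For miR-150-3p it was 1 of 11 below −1, beside 7.06% of 27280 detected probes, and 1 of 11 above 1, beside 2.75%. Shares of 1 in 11 carry little weight, and the counts do not set the members apart from the rest of the array. The median of the detected member probes was −0.12 with miR-150-5p and −0.22 with miR-150-3p, beside −0.01 and −0.03 for all detected probes.

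SPOCK1, or testican-1, was the member with the lowest ratio. Its probe (A_24_P354689, chr5:136311187-136311246 of hg19, minus strand) was measured on all 8 arrays. The log2 ratio was 0.22 (0.21) with miR-150-5p and −2.72 (0.33) with miR-150-3p in PC3 cells. It was 1.11 with miR-99a-3p and 0.56 with miR-100-3p in PC3 cells, 0.83 with miR-99a-5p and 0.65 with miR-99a-3p in FaDu cells, and 0.17 and −0.04 with the siRNAs in PANC-1 cells. The array with miR-150-3p thus stood alone on the low side, while the array with miR-150-5p lay inside the range of the other 6. Behind the low ratio were signals of 1097 in mock and 167 in transfected cells, both well above background, a 6.58-fold difference. With miR-150-5p the signals were 790 in mock and 923 in transfected cells. Only 4 of 22748 measured probes on the array with miR-150-3p, SPOCK1 among them, had a ratio this low. Its size depended on the background correction, since limma's normexp correction (offset 50) with loess gave −2.26. The mean of the 4 PC3 mock levels as control, with levels that carry the same correction, gave −2.28.

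SPOCK2, or testican-2, had a pair of probes that did not behave alike. The first (A_33_P3214943, chr10:73846128-73846187) was measured everywhere and stayed between −0.26 and 0.17, with −0.12 for miR-150-5p and −0.10 for miR-150-3p, each within its spot error of 0.21. The second (A_33_P3214948, chr10:73818826-73818885) was measured on 3 arrays, at 0.97 (0.28) with miR-99a-3p in FaDu cells and at 0.01 and −0.17 in PANC-1 cells. On the 4 PC3 arrays its Cy5 signal was not well above background and its mock signal, 19.5 to 53.3, gave no usable bound.

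SPOCK3, or testican-3, was measured in PC3 cells alone, by 1 of its probes (A_33_P3271156, chr4:167654672-167654731). The log2 ratio was −0.42 (0.24) with miR-150-5p, −0.22 (0.24) with miR-150-3p, 1.65 (0.26) with miR-99a-3p and 0.17 (0.22) with miR-100-3p. The array with miR-99a-3p was the outlying one, with a mock signal of 244 and a transfected signal of 763. The other probe (A_21_P0000154, chr4:167675279-167675338) was above background once, in the Cy5 channel of that same array, which put it at least 1.59-fold higher there.

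MYB encodes the transcription factor c-Myb. Of its probes, A_33_P3311795 was below background in both channels on all 8 arrays, and A_23_P31073 (chr6:135540223-135540282, plus strand) was measured on all 8. The log2 ratio was −1.28 (0.24) with miR-150-5p and −0.49 (0.21) with miR-150-3p in PC3 cells, against −0.22 with miR-99a-3p and 0.37 with miR-100-3p. In FaDu cells it was 1.36 (0.42) with miR-99a-5p and 3.02 (0.37) with miR-99a-3p, and in PANC-1 cells −0.02 and 0.48 with the siRNAs. Both miR-150 arrays thus lay below all other 6, the one with miR-150-5p clearly. The one with miR-150-3p lay below the nearest, PC3 miR-99a-3p at −0.22 (0.21), by less than the combined spot error of these arrays. The signal went from 234 in mock to 96.4 in cells with miR-150-5p, a 2.43-fold difference, and from 310 to 221 with miR-150-3p. On the array with miR-150-5p, 0.241% of the 22783 measured probes were this low. With normexp the value was −0.99, which is not past −1. The high ratios in FaDu cells rest on mock signals of 19.4 and 37.8, below the brightest gene spots that were not called above background on those arrays (25.7 and 44.5), and normexp gave 0.43 and 1.51 there.

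NOTCH3 encodes a receptor of the Notch pathway. The log2 ratio of its probe (A_33_P3313055, chr19:15270489-15270548) was −0.04 (0.21) with miR-150-5p, 0.41 (0.21) with miR-150-3p, 1.20 (0.24) with miR-99a-3p and −0.41 (0.22) with miR-100-3p in PC3 cells. It was −0.14 and −0.18 in FaDu cells and −0.49 and −0.25 in PANC-1 cells. No miR-150 array was low, and the array with miR-99a-3p was the highest of the 8. The 4 PC3 mock channels did not share 1 level of NOTCH3. Their normalised log2 levels were 9.01 and 9.03 on the miR-150 arrays and 7.70 and 7.84 on the arrays with miR-99a-3p and miR-100-3p. Against the mean of these 4 mock levels, the ratios became 0.49, 0.90, 0.14 and −0.90 in the same order, so that the array with miR-99a-3p no longer stood out.

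EGR2, an early-response transcription factor, was dim in PC3 and PANC-1 cells. In PC3 cells the log2 ratio was −0.32 (0.36) with miR-150-5p, where Cy5 was not well above background, −0.02 (0.26) with miR-150-3p, 1.35 (0.37) with miR-99a-3p and 1.28 (0.39) with miR-100-3p. In FaDu cells it was 0.75 (0.23) with miR-99a-5p and −1.13 (0.32) with miR-99a-3p. In PANC-1 cells EGR2 was below background with si-FOXQ1-1 and dim in Cy5 with si-FOXQ1-2. By these ratios the miR-150 arrays lay near 0, below the other PC3 arrays and between the FaDu arrays. The mock signals of 47.0 and 28.6 under the high PC3 ratios were low, and normexp gave 0.48 and 0.38 for them. Against the mean of the PC3 mock levels, with the same correction, the ratios were −0.08 with miR-150-5p and 0.30 with miR-150-3p. They were 0.31 with miR-99a-3p and 0.24 with miR-100-3p, so the array with miR-150-3p no longer lay below both.

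CXCR4 encodes the receptor of the chemokine CXCL12, and the array carries its probe (A_23_P102000, chr2:136871953-136872012) at 10 spots. In PC3 cells the log2 ratio was −0.08 with miR-150-5p, where Cy5 was above background at 5 of 10 spots, 3.70 with miR-150-3p, 0.22 with miR-99a-3p and 0.24 with miR-100-3p. In FaDu cells it was 1.39 with miR-99a-5p and −1.24 with miR-99a-3p. In PANC-1 cells it was 1.48 with si-FOXQ1-1 and −1.07 with si-FOXQ1-2, the latter with Cy5 not well above background. One array stood far above the rest, and the low ratios came from FaDu and PANC-1 cells, not from the miR-150 arrays. With miR-150-3p the signal was 41.6 in mock and 528 in transfected cells, both above background at 10 of 10 spots (SD between spots 0.34 on the log2 scale), a 13.0-fold difference on the mean of the ratios. No measured probe of that array had a higher ratio. Normexp gave 2.28 and the mean of the 4 PC3 mock levels, which carry the same correction, gave 2.12, so the direction held and the size did not.

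**Figure D1:**
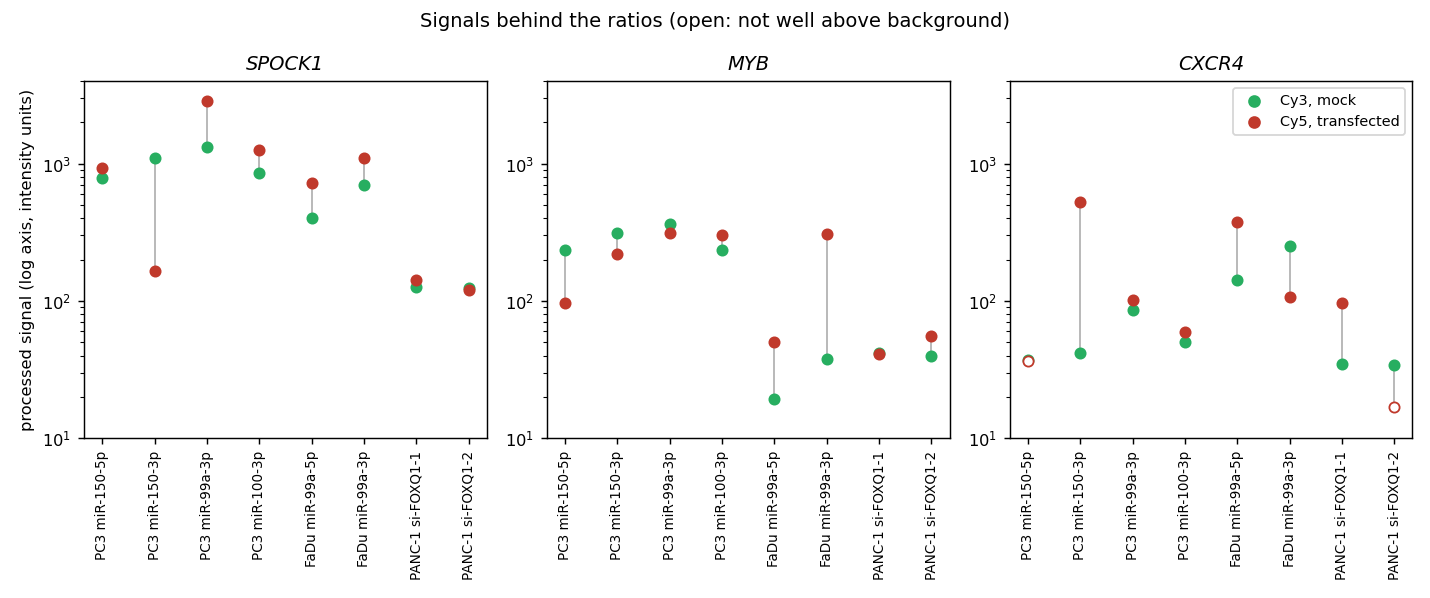
Processed signal (vertical log axis, intensity units) of mock cells in Cy3 (green) and transfected cells in Cy5 (red) for SPOCK1, MYB and CXCR4 on each array. Open symbols were not well above background. With miR-150-3p, SPOCK1 goes from 1097 down to 167 and CXCR4 from 41.6 up to 528, and with miR-150-5p, MYB goes from 234 down to 96.4.

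P2RX7, an ATP-gated ion channel of immune cells, was measured in PC3 cells by 2 of 3 probes. A_22_P00011370 (chr12:121625756-121625815) had log2 ratios of −0.49 with miR-150-5p, −0.28 with miR-150-3p, −0.58 with miR-99a-3p and −0.12 with miR-100-3p, each with an error of 0.21 to 0.22. A_33_P3263867 (chr12:121623474-121623533) had −0.52, −0.46, −1.09 and −0.36 in the same order. P2RX7 was thus below 0 on all 4 PC3 arrays, and by both probes it was lowest with miR-99a-3p. By these ratios the miR-150 arrays were not set apart. Against the mean of the 4 PC3 mock levels, A_22_P00011370 was at −0.43, −0.49, −0.41 and −0.09 in the same order. Both miR-150 arrays were then lowest by that probe, but A_33_P3263867 stayed lowest with miR-99a-3p. The third probe (A_24_P319113) was below background on all 8 arrays, and no P2RX7 probe was above background in FaDu or PANC-1 cells.

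EP300 encodes the acetyltransferase p300, a coactivator that binds c-Myb among others. Its probe (A_23_P40693, chr22:41575033-41575092) was measured on all 8 arrays and was 0.11 (0.21) with miR-150-5p and 0.13 (0.21) with miR-150-3p. The other arrays ranged from −0.30 to 0.41, and both miR-150 arrays lay inside this range, within their spot errors of 0.

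When the miR-150 arrays were set against the other 6, MYB was the only one of 5 member probes that separated them. With miR-150-3p it did so by less than the combined spot error. Of these 5 member probes measured on all 8 arrays, 1 had both miR-150 arrays below all others, beside 3% of 16575 probes, and 0 had both above, beside 4.2%. Without the PC3 array with miR-99a-3p, NOTCH3 had both above. The mean of the miR-150 arrays minus the mean of the others was −1.72 for MYB, −1.79 for SPOCK1, −0.13 for SPOCK2, 0.23 for NOTCH3 and 0.05 for EP300. The value of SPOCK1 came from 1 of the miR-150 arrays, and that of MYB depended on the FaDu cells. Without the FaDu array with miR-99a-3p it was −1.28, and against the other PC3 arrays alone it was −0.96.

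Within PC3 cells, more members had both miR-150 arrays on the low side. The mock channels of the 4 PC3 arrays fell into the same pairs as this comparison, with a median difference of 0.0575 and 0.0640 on the log2 scale within the pairs and 0.104 across them, so that miR-150 and the pair of arrays cannot be told apart here. Of 8 member probes measured on the 4 PC3 arrays, 5 had both miR-150 arrays below the other pair, namely SPOCK1, SPOCK2 (A_33_P3214943), SPOCK3, MYB and EP300, beside 15% of 20270 probes. None had both above, beside 14.6%. Against the mean of the 4 PC3 mock levels, 6 of 8 lay below, the same 5 and P2RX7 (A_22_P00011370), beside 19.2%, and NOTCH3 lay above, beside 17.3%. The differences of the means were −2.08 for SPOCK1, −1.23 for SPOCK3, −0.96 for MYB, −0.22 for SPOCK2 and −0.21 for EP300. For SPOCK2 and EP300 the difference was about the size of the spot error of a single ratio, and for SPOCK1 and SPOCK3 it was widened by the array with miR-99a-3p, on which both were high.

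That array had its own pattern. With miR-99a-3p in PC3 cells, 5 of 12 detected member probes lay above 1, beside 4.11% of 26844 detected probes. They were SPOCK1, both SPOCK3 probes, NOTCH3 and EGR2. The SPOCK3 probe A_21_P0000154 was detected only through the Cy5 channel in which it was high, and with both channels above background the count was 4. Normexp left 1 of the 5 above 1, SPOCK3 (A_33_P3271156) at 1.30. The mean of the 4 PC3 mock levels, which carry the same correction, left 2, SPOCK3 at 1.46 and SPOCK1 at 1.08. SPOCK1 and SPOCK3 were also above 0 with miR-100-3p, at 0.56 and 0.17, and NOTCH3 was not.

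The strands of miR-150 were compared next, by subtracting the ratio with miR-150-3p from that with miR-150-5p. SPOCK1 differed by 2.94 (combined spot error 0.39), and 0.0738% of 21676 probes measured on both arrays differed by as much. MYB differed by −0.79 (0.32), lower with miR-150-5p, and NOTCH3 by −0.45 (0.29), higher with miR-150-3p. CXCR4 differed by −3.78 (0.55), as a value without a measured Cy5 signal on the array with miR-150-5p. In all, 3 of 8 member probes measured on both arrays lay farther apart than their combined spot error, beside 46.4% of all such probes, and this count does not set the members apart. The remaining differences were between −0.22 and −0.02 for SPOCK2 (A_33_P3214943), SPOCK3, both P2RX7 probes and EP300.

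**Figure D2:**
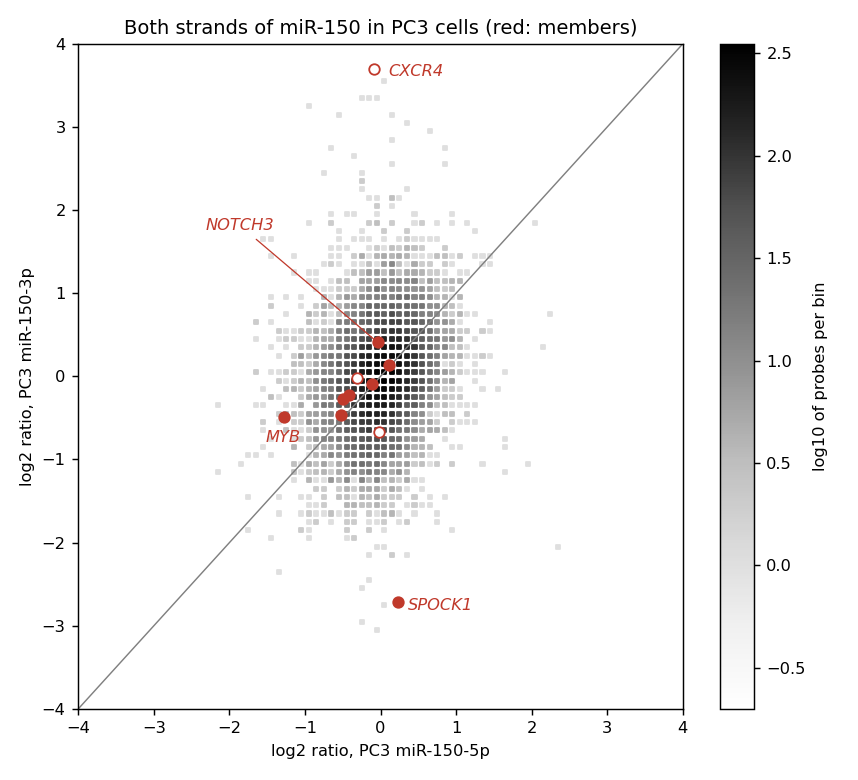
Log2 ratio in PC3 cells with miR-150-5p (horizontal axis) and with miR-150-3p (vertical axis), with all probes measured on both arrays counted in grey bins and member probes in red, open where a channel was not well above background. SPOCK1 (0.22 and −2.72) and CXCR4 (−0.08 and 3.70) lie far from the line of equal ratios, and MYB (−1.28 and −0.49) lies to the left.

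Lists of genes related to the members were read beside them. Of 11 other genes reported as miR-150 targets, 9 were detected with either strand and 0 of 9 lay below −1 with either. Of all detected probes, 4.75% lay below −1 with miR-150-5p and 7.06% with miR-150-3p. Their median was −0.17 with miR-150-5p and −0.34 with miR-150-3p, or −0.22 with miR-150-3p over the genes measured in both channels. On the arrays without miR-150 the median of the detected genes ran from −0.22 in FaDu cells to 0.03 in PC3 cells, both with miR-99a-3p. The median with miR-150-5p lay inside that range. Over the genes measured in both channels, which differed between arrays, it ran from −0.14 with si-FOXQ1-2 to 0.03. The medians with miR-150-5p (−0.17) and miR-150-3p (−0.22) both lay below that range. The lowest measured in both channels were ZEB1, a repressor of epithelial genes, at −0.70 (0.21) with miR-150-5p and the mucin MUC4 at −0.86 (0.22) with miR-150-3p, and the highest measured were MUC4 at 0.05 and the translation inhibitor PDCD4 at 0.52. Of 5 SPARC relatives, 2 were detected with either strand. With miR-150-3p the secreted glycoprotein FSTL1 was at −1.12 (0.23) and SPARC itself at 1.12 (0.23), so that FSTL1 lay on the same side of 0 as SPOCK1 and SPARC on the other, and with miR-150-5p they were at −0.35 and 0.41.

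Of 18 other Notch pathway genes, 14 were detected with either strand. With miR-150-5p none lay beyond 1 in either direction, and with miR-150-3p MAML2, dim in Cy5, lay below −1 and JAG1 and NOTCH4 above 1. The shares of all detected probes with miR-150-3p were 7.06% below −1 and 2.75% above 1, and with miR-150-5p 4.75% and 0.66%. The lowest measured gene was HEY1, a Notch-induced repressor, at −0.87 with miR-150-5p and −0.70 with miR-150-3p. The highest measured were the coactivator MAML2 at 0.98 with miR-150-5p and the ligand JAG1 at 1.31 (0.24) with miR-150-3p. The list medians were 0.10 and 0.02. Of 16 relatives and partners of the other members, 11 were detected with miR-150-5p and 10 with miR-150-3p, with medians of 0.07 and −0.43. With miR-150-5p 0 lay below −1, and MYBL1, a relative of MYB, was the lowest measured at −0.36 (0.21). With miR-150-3p 2 of 10 lay below −1, beside the 7.06% of all detected probes, a count too small to set the list apart. MYBL2, another MYB relative that rises in dividing cells, was lowest at −1.46 (0.25). The highest measured were the ATP-gated channels P2RX2 at 0.16 and P2RX4 at 0.47. CXCL12, the ligand of CXCR4 and the other gene below −1, was above background in 1 channel only on both arrays.

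Interferon-response genes were high on the array on which CXCR4 was high. With miR-150-3p, 11 of 12 genes of this list lay above 1, beside 2.75% of all detected probes, with a median of 1.99, from IRF7 at 0.91 (0.22) to the antiviral GTPase MX1 at 3.12 (0.35). With miR-150-5p, 0 of 12 lay above 1 and the median was −0.26, from OASL at −1.43 (0.24) to OAS1 at 0.19. CXCR4 was at −0.08 on that array. In FaDu cells with miR-99a-3p, 7 of the 12 lay above 1, beside 7.8% of all detected probes, with a median of 1.11, and CXCR4 was at −1.24. The part of the interferon response in the ratios of CXCR4 and SPOCK1 was not tested.

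**Figure D3:**
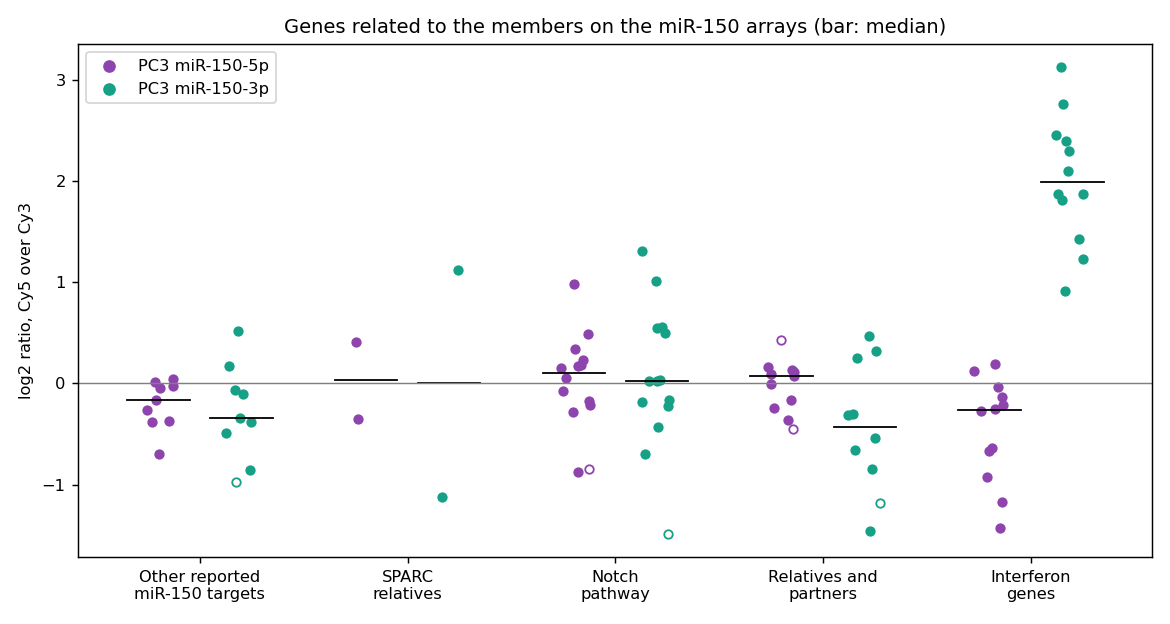
Log2 ratio (vertical axis) of each detected gene of 5 lists related to the members in PC3 cells with miR-150-5p (purple) or miR-150-3p (green), with 1 probe per gene, open where a channel was not well above background, and bars at the medians. The interferon genes sit around 1.99 with miR-150-3p and around −0.26 with miR-150-5p, and the other lists have medians between −0.43 and 0.10.

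Over the 8 arrays, the genes whose ratios ran most like those of SPOCK1 were MBNL1 (r = 0.97), IMMP2L (0.96) and MUC4 (0.96), out of 13242 genes measured on all arrays. All 3 were lowest with miR-150-3p, at −1.14, −1.92 and −0.86. For MYB they were GJC1 (0.97), ELP5 (0.97) and CD70 (0.96), all highest in FaDu cells with miR-99a-3p. For NOTCH3 they were FZD6, DPYSL4 and TMEM259 (each 0.97), all highest in PC3 cells with miR-99a-3p. For SPOCK2 they were ZBTB7A (0.93), GLIS2 (0.92) and lnc-TAF12-3 (0.91), and for EP300 VCPKMT (0.97), SMARCAD1 (0.94) and SLC17A5 (0.93). These correlations describe 8 arrays of 1 slide, and for SPOCK1, MYB and NOTCH3 the most extreme array of the member was also that of each gene named.

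The mock channels gave the level of each member in the lines themselves, and here a test was possible. Normalised log2 levels of 4 PC3, 2 FaDu and 2 PANC-1 mock channels were compared with limma over 29962 probes, with Benjamini-Hochberg adjusted p-values. The labels do not say that these channels came from separate cultures, so the p-values measure the spread between channels, which may be technical. The 4 PC3 channels fell into 2 pairs, as given above. Fewer cells of a kind and less RNA per cell cannot be told apart in such bulk RNA.

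SPOCK1 was highest in PC3 cells, at 9.74 ± 0.10 (SD, n = 4), followed by FaDu at 9.13 ± 0.01 (n = 2) and PANC-1 at 7.73 ± 0.04 (n = 2), and no neighbours in this order overlapped. The log2 difference from PC3 cells was −2.01 in PANC-1 (SE 0.07, limma adjusted p = 2.39e-09) and −0.60 in FaDu cells (limma adjusted p = 2.08e-05). The probes of SPOCK2 gave different orders. A_33_P3214948 was 2.40 higher in PANC-1 than in PC3 cells (SE 0.06, limma adjusted p = 2.81e-10), whereas A_33_P3214943 differed by −0.02 (limma adjusted p = 0.787). SPOCK3 was above background in PC3 mock cells only, at least 2.23-fold higher than in FaDu and 2.12-fold higher than in PANC-1 cells.

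MYB was at 8.43 ± 0.03 (n = 4) in PC3 cells. The log2 difference from PC3 was −1.62 in FaDu (SE 0.07, limma adjusted p = 4.55e-09) and −1.43 in PANC-1 cells (limma adjusted p = 1.66e-08). FaDu, at 6.81 ± 0.15 (n = 2), and PANC-1 were neighbours whose difference of 0.19 had an adjusted p of 0.0471 in limma and lost its call when 7 of the 8 mock channels were left out one at a time. P2RX7 was above background in PC3 mock cells only, at least 3.60-fold above FaDu cells by A_22_P00011370. Against PANC-1 cells it was 3.16-fold higher, which is the plain difference of the mean levels and not a bound. The calls of its probes between FaDu and PANC-1 compare levels below background and are not read. NOTCH3, EGR2, CXCR4 and EP300 were instead highest in FaDu cells.

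NOTCH3 was 3.20 higher in FaDu than in PC3 cells (SE 0.35, limma adjusted p = 1.14e-05) in spite of the split among the PC3 channels, and PC3 and PANC-1 did not differ by the test (−0.28, limma adjusted p = 0.508). CXCR4 was 1.17 higher in FaDu than in PC3 cells (SE 0.08, limma adjusted p = 3.46e-07), EGR2 1.04 (SE 0.14) and EP300 1.50 (SE 0.06). For these 3 genes PANC-1 and PC3 were neighbours that the test did not separate, with limma adjusted p-values of 0.947, 0.113 and 0.0929. Of 11 member probes tested, 11 were called between FaDu and PC3, beside 74.9% of all probes, 6 between PANC-1 and PC3, beside 67.9%, and 10 between PANC-1 and FaDu, beside 68.8%. Most probes on the array were called in these comparisons, and the members were not set apart by it.

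**Figure D4:**
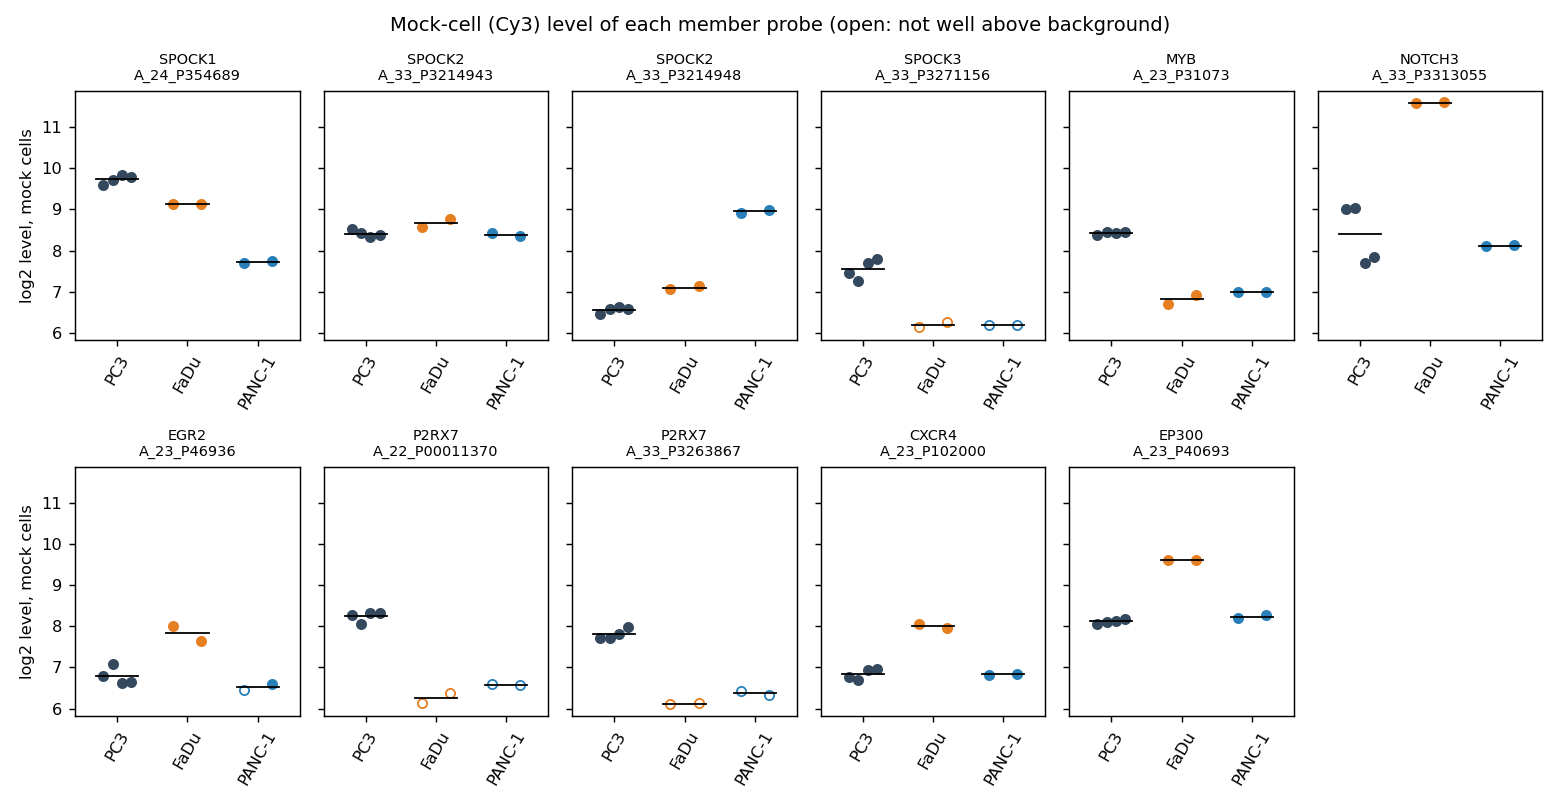
Normalised log2 level (vertical axis) of the 11 tested member probes in mock cells of each line, with 1 point per mock channel, the mean as a line, and open points not well above background. SPOCK1, SPOCK3, MYB and P2RX7 are highest in PC3 cells, NOTCH3, EGR2, CXCR4 and EP300 in FaDu cells, and the PC3 points of NOTCH3 split between 7.70 and 9.03.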

How the data were processed

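Total RNA of transfected (Cy5) and mock (Cy3) cells was hybridised to 8 arrays, 1 per condition, and this small number limits precision. The authors scanned them and ran Agilent Feature Extraction 10.7.3.1, which corrected the background and balanced the dyes of an array (linear, then lowess). The deposited values used were the log10 ratio of Cy5 over Cy3 with its error, and the intensity of each channel, in which surrogate values stand in for signals not above background. The series' own value table held the same log10 ratios, as deposited by the authors, with a largest difference of 0.

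Here, log10 ratios were turned into log2. Between 81 and 178 of 60901 gene spots per array with an outlier flag were left out, and 0 were saturated. Spots of a probe were averaged. A probe with several spots was above background where more than 50% of them were. Each of the 9 genes was named with all its probes. Of the 14 probes, 12 carry a RefSeq transcript, and all 12 matched the RefSeq table by symbol. Coordinates are those of the array design (hg19). For the related lists, the gene's brightest probe was used, and the text names the lowest and the highest measured gene of each list on the miR-150 arrays. Genes whose ratios ran alike are the 3 with the highest Pearson r. The members and lists were chosen with earlier results of these data known. A bound on a ratio sets the bright signal against the brightest gene spot not called above background in the other channel. A bound between lines sets the mean of the bright line against, per array, the higher of the lowest level above background and the dim probe's own. It is less strict than the bound on a ratio, and where the dim probe's own level is the higher it equals the plain difference.

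Mock levels were made from mean and background signals with limma 3.58.1 in R 4.3.3 (normexp with an offset of 50, loess, Aquantile), for probes above background on at least 2 arrays, and tested with lmFit and eBayes at an adjusted p of 0.05. On simulated levels of 29962 probes for the comparison of FaDu with PC3, 99% of 200 probes changed by 2 on the log2 scale were called, and 0.0437% of the unchanged ones. Alternatives were normexp with loess for the ratios, the series table, flagged spots kept, centred arrays, other filters, thresholds, probes and controls, other scalings of the mock levels, and left-out arrays. The mean of the 4 PC3 mock levels as control (also for the miR-150 arrays against the other PC3 arrays) and mock channels averaged in pairs were added after seeing the data. Ratios against that mean used the normexp levels of both channels, so they include the change that normexp made to the ratios. Tables were handled in Python 3.11.15 with numpy 2.4.6 and pandas 2.3.3. Seed sites in transcripts were not analysed here. Some cell type markers are not reported here.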

Additional observations from a re-analysis of the deposited data

Results flagged for a closer look

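MYB differed between lines under the same miRNA. With miR-99a-3p it was 3.02 in FaDu and −0.22 (0.21) in PC3 cells, a difference of −3.24 for PC3 minus FaDu on the log2 scale. The PC3 value was barely beyond its spot error. EGR2 moved in opposite directions with miR-99a-3p, at −1.13 in FaDu and 1.35 in PC3 cells, a difference of 2.47. CXCR4 moved in opposite directions with the siRNAs against FOXQ1 in PANC-1 cells, at 1.48 with si-FOXQ1-1 and −1.07 with si-FOXQ1-2, a difference of 2.55, while FOXQ1 itself was at −2.16 and −2.12. Each value exceeded its spot error on both arrays, and each rests on 1 array per condition, so none of these differences was tested. Low signals lie behind all of them. The mock signal of MYB was 37.8 in FaDu cells with miR-99a-3p, that of EGR2 was 47.0 in PC3 cells with miR-99a-3p, and Cy5 of CXCR4 was not well above background with si-FOXQ1-2.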

How the results depend on the processing

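No result changed direction under any alternative that was run, among those with a ratio beyond 1 or a call. Normexp with loess shrank the ratios with miR-150-3p of SPOCK1 to −2.26 and CXCR4 to 2.28, that of MYB with miR-150-5p to −0.99, the differences of the miR-150 arrays from the others to −1.52 for SPOCK1 and −1.05 for MYB, and the differences between strands to 2.44 for SPOCK1 and −2.31 for CXCR4. A further alternative subtracted the mean of all remaining PC3 arrays, the array with the other miR-150 strand among them. SPOCK1 was then 0.58 with miR-150-5p and −3.35 with miR-150-3p, and MYB −0.11 with miR-150-3p. The 0.58 thus includes the low SPOCK1 ratio with miR-150-3p and is not a comparison with miR-99a-3p and miR-100-3p alone. Against the mean of the 4 PC3 mock levels, SPOCK1 was −2.28 and CXCR4 2.12 with miR-150-3p and MYB −1.03 with miR-150-5p. These values include the normexp correction and lay near those that normexp gave with each array's own mock channel. Against the other 2 PC3 arrays only, the differences were −2.08 for SPOCK1 and −0.96 for MYB, and 5 member probes in place of 1 had both miR-150 arrays below. Leaving out each other array in turn gave −1.28 to −1.93 for MYB, lowest in size without FaDu miR-99a-3p, −1.68 to −1.91 for SPOCK1, and 1 to 2 such probes, with SPOCK2 added when PANC-1 si-FOXQ1-1 was left out. NOTCH3 had both above when PC3 miR-99a-3p was left out. Without a filter on dim probes, 2 member probes had both miR-150 arrays below, SPOCK3 (A_33_P3271156) and MYB. The count below −1 with miR-150-5p was 0 under normexp, 2 without a filter and 0 at a threshold of 2, and with miR-150-3p it was 2 at a threshold of 0.58. The count above 1 with miR-99a-3p in PC3 cells was 1 under normexp, 2 against the mean of the PC3 mock levels and 0 at a threshold of 2. Averaging the mock channels in pairs left 6 of 11 member probes called between PANC-1 and FaDu, 10 between FaDu and PC3 and 6 between PANC-1 and PC3. Leaving out each mock channel in turn gave 7 to 9, 10 to 11 and 6. The averaging lost SPOCK2 (A_33_P3214943), MYB and both P2RX7 probes between PANC-1 and FaDu. No paired analysis was possible because no condition was hybridised more than once. Dim signals limit EGR2 in PC3 and PANC-1 cells, MYB in FaDu cells and SPOCK2 (A_33_P3214948) in PC3 cells.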
